A study of Mus musculus with 10 samples.

Results

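The genes described here encode the machinery that brings proteins into mitochondria, together with the MICOS complex of the inner membrane, as read in ribosome-associated RNA of the mouse ventral tegmental area after acute restraint. Members were taken by name: symbols starting with Timm, Tomm or Chchd and a digit, and 11 further genes (Timmdc1, Samm50, Pam16, Grpel1, Romo1, Gfer, Immt, Apoo, Apool, Pmpca and Pmpcb), without pseudogenes and predicted genes, that had at least 10 counts in 5 or more libraries. Of 56691 genes in the table, 46 fitted by name, 1 was excluded as a pseudogene (Chchd2-ps), 3 were below the count rule (Tomm6, Tomm20l and Timm8a2), and 42 remained. All 42 also passed the filter of the test. One of them, Tomm6os, is a noncoding RNA gene antisense to Tomm6 and enters through its name.

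The ventral tegmental area, a midbrain region rich in dopaminergic neurons, came from male C57BL/6 mice labelled WT that were either left unrestrained (5 libraries, called Normal in the labels) or restrained for 30 min (5 libraries). In both groups the dopaminergic neurons carried a tagged construct named NBL10-HA, by which mRNA on ribosomes was enriched. The promoter behind the construct, the age of the mice and whether each library came from its own animal are not given in the sources used here, so p-values measure the spread between libraries, which may be technical in part. Totals ran from 56082358 to 86584968 counts. Dopamine neuron markers summed to 1948 to 2672 CPM (counts scaled to a common library total, with the TMM normalization of edgeR) in controls and 2171 to 3009 CPM after restraint over 11 genes. Astrocyte markers summed to 5072 to 5806 and 5569 to 6593 CPM over 8 genes, and microglial markers to 18.0 to 30.4 and 19.0 to 27.9 CPM over 8, so markers of other cell types were measured in every library. In such RNA, fewer cells of a type and less RNA per cell cannot be told apart.

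Nearly all mitochondrial proteins are made in the cytosol and imported. The TOM complex is the entry pore of the outer membrane. Behind it, TIM23 with its PAM motor carries proteins with a presequence into the matrix, TIM22 with small TIM chaperones inserts carrier proteins into the inner membrane, the disulfide relay of Chchd4 (MIA40) and Gfer traps small cysteine-rich proteins between the membranes, and the SAM complex, built on Samm50, inserts barrel-shaped proteins into the outer membrane. MICOS, organised by Immt (mitofilin), shapes the cristae and is bound to SAM. Neurons depend on this supply because they draw much of their energy from mitochondria, and dopaminergic neurons are known for their sensitivity to mitochondrial defects.

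More members stood lower than higher after restraint, and none passed the test over all genes. Of the 42, 29 had a negative and 13 a positive log2 fold change, where 50.4% of all 18440 genes tested were negative. The count of negative members ran from 24 to 33 over 21 other settings of the processing, and was 24 with each library's trend on exon length removed, without control 3 and without restraint 4. The median log2 fold change was -0.05, against -0.00 over all genes tested. Without restraint 2 the median was -0.09, and without control 3 it was -0.03. At an adjusted p under 0.05, 0 members were lower and 0 higher (edgeR quasi-likelihood test, Benjamini-Hochberg), where 0.0163% and 0.00542% of all genes were called, 0.0217% in either direction. A looser filter, which kept every gene with at least 1 count, gave 4 members past that level (Tomm7, Chchd2, Chchd4 and Timm13), all lower, where 0.612% of 32529 genes were called as lower and 0.317% as higher. At an unadjusted p under 0.05, 11 members were lower, or 26.2%, where 6.04% of all genes were lower at that level. Among tested genes with at least 5 CPM in controls, this share ran from 4.89% to 23.9% by class of exon length, as given below. In the other direction 1 member was higher (Immt), or 2.38%, where 5.64% of all genes were higher. With DESeq2, 4 members were called as lower at an adjusted p under 0.05 (Tomm7, adjusted p = 0.00108; Samm50, 0.0280; Grpel1, 0.0333; Chchd4, 0.0469) and 0 as higher, where 1% and 0.634% of all genes were called. The groups did not overlap in CPM for Samm50 and Grpel1, which were lower, where 1.36% of all genes were lower without overlap, and for Immt, which was higher, where 1.25% were.

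**Figure D1:**
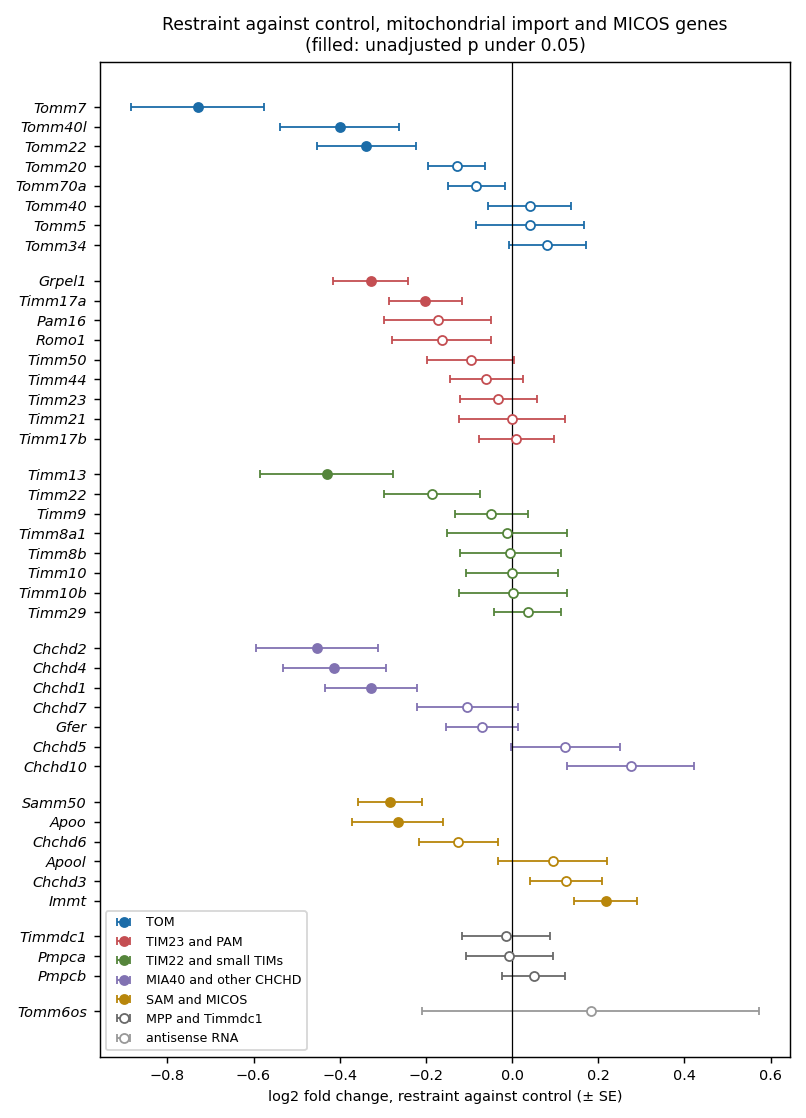
Log2 fold change of restraint against control (horizontal axis, ± SE, n = 5 libraries per group) for the 42 members, coloured by role, with filled points where the unadjusted p was under 0.05. Tomm7, at -0.73, lies farthest to the left, and Immt is the 1 filled point to the right of 0.

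In the group named for the TOM complex, not all of whose members need be subunits of it, 5 of 8 members were negative. Of these, 3 were lower at an unadjusted p under 0.05. Tomm7, a small subunit that regulates assembly of the TOM pore and the stabilisation of the kinase PINK1 on damaged mitochondria (chromosome 5, 24043942 to 24049159, GRCm39), stood at 64.4, 58.4, 68.9, 63.4 and 35.0 CPM in controls 1 to 5. After restraint it stood at 32.9, 44.6, 32.6, 28.6 and 36.1 CPM in libraries 1 to 5. Control 5 lay inside the restraint range and the other 4 controls lay above every restraint library. The log2 fold change was -0.73 ± 0.15 (SE, n = 5 per group; edgeR adjusted p = 0.0856), or 0.603 of the control level. Without control 5 the adjusted p was 0.0124, and with the trend on exon length removed from each library it was 0.0524. Without control 3 the adjusted p was 0.243, the highest with 1 library left out. Over all genes, leaving out control 5 gave 16 lower and 4 higher past an adjusted p of 0.05, where all libraries gave 3 and 1.

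Tomm22, the central receptor that holds the pore together (chromosome 15, 79555062 to 79557601), stood at 121, 98.4, 131, 121 and 114 CPM in controls and at 83.5, 112, 79.8, 76.7 and 111 CPM after restraint. Restraint libraries 1, 3 and 4 lay below every control, and libraries 2 and 5 lay within the control range. Its log2 fold change was -0.34 ± 0.11 (SE; edgeR adjusted p = 0.248). Tomm40l, a relative of the pore-forming Tomm40, stood at -0.40 ± 0.14 (edgeR adjusted p = 0.259). It shares 64.3% of its exon bases with Nr1i3 on the opposite strand, which held 33 counts in all, and reads over both genes were not assigned, so its level is uncertain. Without control 2, its highest library, the log2 fold change was -0.26. The receptors Tomm20 (-0.13 ± 0.07) and Tomm70a (-0.08 ± 0.07) and the members Tomm40, Tomm5 and Tomm34 (0.04 to 0.08) did not pass at either level. Per kilobase of exon the controls ranked Tomm20 first, at 99.6 ± 1.77 CPM (SD, n = 5), then Tomm22 at 70.9 ± 7.29 CPM, with Tomm5 (51.7) and Tomm7 (51.5) overlapping each other in range. Tomm6, another small subunit, held 0 to 9 counts in each library. Other annotated genes cover 84.2% of its exon bases, so these counts say little about its RNA.

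In the TIM23 channel and PAM motor, 8 of 9 members were negative and 2 were lower at an unadjusted p under 0.05. Grpel1, the nucleotide exchange factor of the mitochondrial Hsp70 that pulls proteins into the matrix (chromosome 5, 36622342 to 36631424), stood at 61.3, 60.2, 65.3, 60.4 and 53.3 CPM in controls and at 53.1, 51.1, 41.4, 47.2 and 46.4 CPM after restraint. The groups were separate by a narrow gap, between restraint 1 and control 5. On the log2 scale the difference was -0.33 ± 0.09 (SE; edgeR adjusted p = 0.162). Grpel1 shares 11.65% of its exon bases with Tada2b on the opposite strand, which held 21415 counts in all, and reads over both genes were not assigned. Timm17a, which forms part of the channel (chromosome 1, 135222951 to 135241516), stood at 145, 148, 144, 141 and 130 CPM in controls and at 110, 143, 125, 109 and 129 CPM after restraint. Its 5 restraint libraries lay below the control median, and restraint 2 lay within the control range. Timm17a had a log2 fold change of -0.20 ± 0.08 (edgeR adjusted p = 0.351). Its alternative form Timm17b had a control mean of 31.2 ± 1.69 CPM and a restraint mean of 31.4 ± 2.86 CPM (SD of 5 libraries), and Timm21 at -0.00 ± 0.12 on the log2 scale. Pam16 (-0.17 ± 0.12), which restrains the J protein of the motor, and Romo1 (-0.16 ± 0.12), a small membrane protein tied to the channel, had larger standard errors. The channel gene Timm23 (-0.03 ± 0.09), the receptor gene Timm50 (-0.10 ± 0.10) and Timm44 (-0.06 ± 0.08), which anchors the motor, lay within about 1 standard error of 0.

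Among the TIM22 carrier translocase and the small TIM chaperones, 6 of 8 members were negative and 1 was lower at an unadjusted p under 0.05. The other 7 had log2 fold changes from -0.19 to 0.04 and an unadjusted p above 0.05. Timm13, which with Timm8a1 or Timm8b forms a chaperone of the space between the membranes (chromosome 10, 80735284 to 80736803), stood at 105, 103, 126, 103 and 87.5 CPM in controls. After restraint it stood at 68.8, 112, 69.8, 52.2 and 87.2 CPM. Restraint 2 lay within the control range, restraint 5 just below the lowest control, and restraint 1, 3 and 4 lay apart below them. Timm13 had a log2 fold change of -0.43 ± 0.15 (edgeR adjusted p = 0.275). Its partners did not share this value: Timm8b was at -0.00 ± 0.12 and Timm8a1 at -0.01 ± 0.14, a contrast that was not tested. The other chaperone pair, Timm9 and Timm10, was at -0.05 ± 0.08 and -0.00 ± 0.11, Timm29, a TIM22 subunit, at 0.04 ± 0.08, and Timm10b at 0.00 ± 0.13. Timm22, the carrier channel, stood at 46.1, 51.8, 53.8, 53.9 and 47.7 CPM in controls and at 45.8, 48.8, 41.4, 33.0 and 53.7 CPM after restraint (log2 fold change -0.19 ± 0.11, edgeR adjusted p = 0.558). Restraint 1, 3 and 4 lay below every control, the first of them narrowly, and without restraint 4 the log2 fold change was -0.09. Per kilobase of exon in controls, Timm8b (148 ± 15.4 CPM, SD, n = 5) and Timm13 (76.5 ± 10.02 CPM) led this group, and Timm8a1 stood at 9.03 ± 0.833 CPM.

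Among the disulfide relay and the other CHCHD proteins, which carry paired cysteines, log2 fold changes ran from -0.45 to 0.28. Of 7 members 5 were negative and 3 were lower at an unadjusted p under 0.05. Chchd4, the oxidoreductase of the relay (chromosome 6, 91439154 to 91450528), stood at 69.7, 63.3, 70.4, 67.9 and 57.6 CPM in controls and at 39.4, 53.3, 47.8, 41.3 and 65.4 CPM after restraint. Restraint 5 lay within the control range and the other 4 lay below every control. Chchd4 had a log2 fold change of -0.41 ± 0.12 (edgeR adjusted p = 0.188), and without restraint 5 it was -0.54 with an adjusted p of 0.0282. Without control 3 it was -0.38 with an adjusted p of 0.392, the highest with 1 library left out. Over all genes, leaving out restraint 5 gave 83 lower and 9 higher past an adjusted p of 0.05, where all libraries gave 3 and 1. Gfer, which reoxidises Chchd4, was at -0.07 ± 0.08, from 24.9 ± 1.78 to 23.7 ± 0.878 CPM (SD, n = 5 each). Chchd5 was at 0.12 ± 0.13 and Chchd7 at -0.10 ± 0.12 on the log2 scale.

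Chchd2, a regulator of respiration whose human counterpart is mutated in familial Parkinson's disease (chromosome 5, 129909997 to 129916311), had the highest level per kilobase of exon of all members (231 ± 31.1 CPM in controls). It stood at 443, 457, 604, 555 and 562 CPM in controls and at 357, 416, 309, 292 and 541 CPM after restraint. As for Chchd4, restraint 5 was the library within the control range. Chchd2 had a log2 fold change of -0.45 ± 0.14 (edgeR adjusted p = 0.215), and without restraint 5 it was -0.62 with an adjusted p of 0.0275. Without restraint 3 it was -0.39 with an adjusted p of 0.456, the highest with 1 library left out. Chchd1, a protein of the small mitochondrial ribosomal subunit, was at -0.33 ± 0.11 (edgeR adjusted p = 0.222), with 4 of 5 restraint libraries below every control. Chchd10, the close relative of Chchd2, whose human counterpart is mutated in forms of amyotrophic lateral sclerosis and frontotemporal dementia (chromosome 10, 75768964 to 75773581), stood on the other side of 0. It stood at 114, 106, 170, 139 and 161 CPM in controls and at 114, 193, 199, 156 and 173 CPM after restraint. Restraint 2, 3 and 5 lay above every control and restraint 1 near the lowest. The log2 fold change of 0.28 ± 0.15 did not pass (edgeR adjusted p = 0.498).

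**Figure D2:**
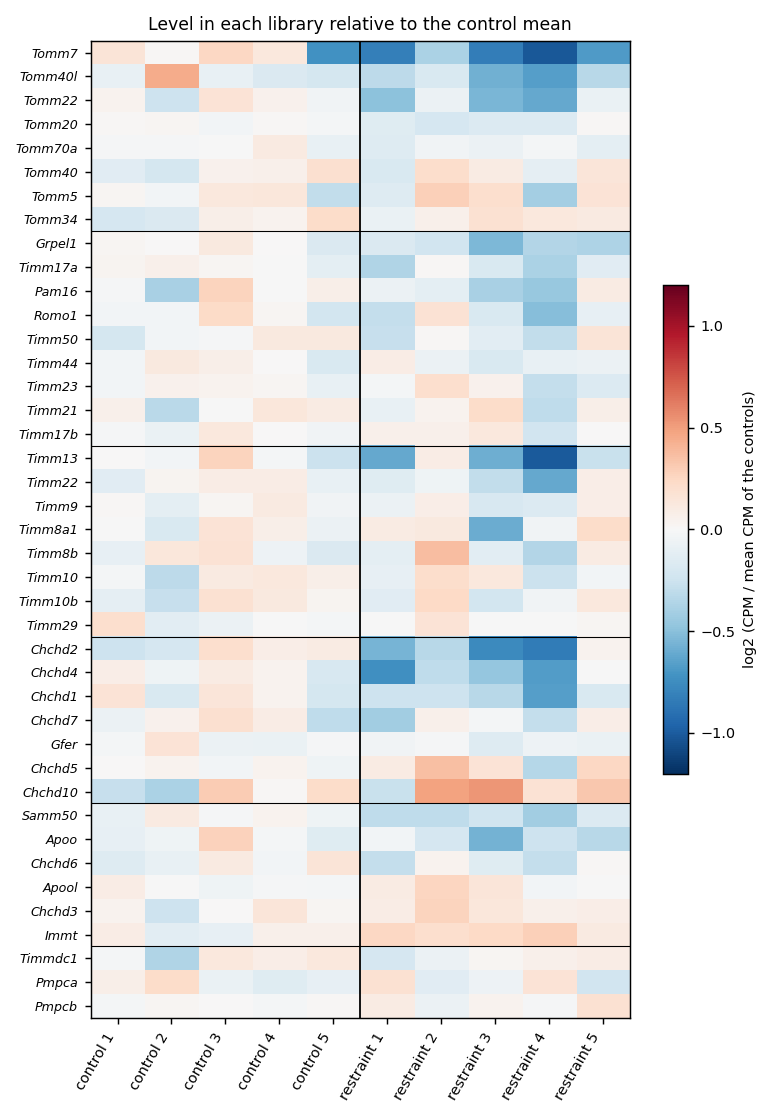
Level of 41 members (rows, grouped by role and without the antisense RNA Tomm6os) in each of the 10 libraries (columns), as log2 of CPM over the mean CPM of the 5 controls. Blue cells concentrate in restraint 1, 3 and 4, while restraint 2 and 5 look closer to the controls in most rows.

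In SAM and MICOS the members went both ways, 3 negative and 3 positive. Samm50, the core of the SAM complex (chromosome 15, 84076442 to 84101468), stood at 109, 125, 115, 119 and 112 CPM in controls and at 94.1, 94.1, 98.2, 86.6 and 103 CPM after restraint. Every restraint library lay below every control. Samm50 had a log2 fold change of -0.28 ± 0.07 (SE; edgeR adjusted p = 0.159). Immt, the organiser of MICOS that docks on Samm50 (chromosome 6, 71808315 to 71854372), stood at 144, 124, 127, 141 and 142 CPM in controls and at 161, 156, 160, 165 and 146 CPM after restraint. Every restraint library lay above every control, by a margin of about 1 CPM between restraint 5 (145.7) and control 1 (144.5). The log2 fold change was 0.22 ± 0.07 (edgeR adjusted p = 0.243). Chchd3 and Chchd6, which join Immt in the same subcomplex, stood at 70.1 ± 6.80 and 74.0 ± 6.71 CPM in controls and at 76.5 ± 4.47 and 67.8 ± 7.39 CPM after restraint (SD, n = 5 each; log2 fold changes 0.13 ± 0.08 and -0.13 ± 0.09). Apoo (MIC26), a cristae protein of the apolipoprotein O family, was at -0.27 ± 0.11 (edgeR adjusted p = 0.329), and its relative Apool (MIC27) at 0.09 ± 0.13. Control 3 held the highest Apoo level, 58.8 CPM, against 43.8 to 47.6 CPM in the other controls. Without it, or without restraint 3, Apoo was no longer at an unadjusted p under 0.05.

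The processing protease, which clips presequences off in the matrix, and Timmdc1 held 0 of 3 members at an unadjusted p under 0.05. Pmpcb, its catalytic subunit, stood at 73.7, 76.1, 75.1, 73.8 and 75.5 CPM in controls and at 80.1, 71.4, 76.9, 74.2 and 84.7 CPM after restraint (log2 fold change 0.05 ± 0.07, edgeR adjusted p = 0.859). Restraint 1, 3 and 5 lay above every control, restraint 2 below them all and restraint 4 within their range. The SD was 1.06 CPM in controls and 5.17 CPM after restraint. Pmpca, the partner of Pmpcb, was at -0.01 ± 0.10. Timmdc1, an assembly factor of respiratory complex I that is related to TIM proteins, stood at 30.1, 23.8, 33.3, 32.4 and 33.3 CPM in controls and at 26.5, 29.2, 31.1, 31.9 and 32.5 CPM after restraint (-0.01 ± 0.10, edgeR adjusted p = 0.977). The antisense gene Tomm6os stood near 0.717 CPM in controls and had the largest standard error, 0.39. Other genes cover 51.3% of its exon bases, where reads were not assigned, so its count is incomplete. The authors' counting did not use strand, so the strand of its remaining reads is not known.

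Ratios between related members within a library do not depend on how libraries are scaled, and 9 such pairs were compared by an exact two-sided permutation test, with adjustment over the 9. None passed, and at the least p this number of libraries allows, no pair could pass on its own after that adjustment. The smallest adjusted p was 0.0536, shared by 4 pairs. Chchd2 against Chchd10 was the 1 pair whose groups did not overlap. The ratio of counts was 3.89, 4.30, 3.55, 3.98 and 3.49 in controls and 3.12, 2.15, 1.55, 1.88 and 3.12 after restraint. The mean log2 ratio was 0.75 ± 0.21 (SE) lower after restraint (exact permutation p = 0.00794, the least this number of libraries allows; adjusted 0.0536). Leaving out any 1 library gave differences from -0.87 to -0.61. The exon lengths of these genes are 2269 and 1575 bases. A ratio between genes of unequal length can still depend on each library's trend on length. The ratio was not tested with that trend removed. In the fit of single genes with the trend removed, Chchd2 had a log2 fold change of -0.45 ± 0.12 and Chchd10 of 0.33 ± 0.12 (SE). Chchd10 shares 11.4% of its exon bases with other genes.

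**Figure D3:**
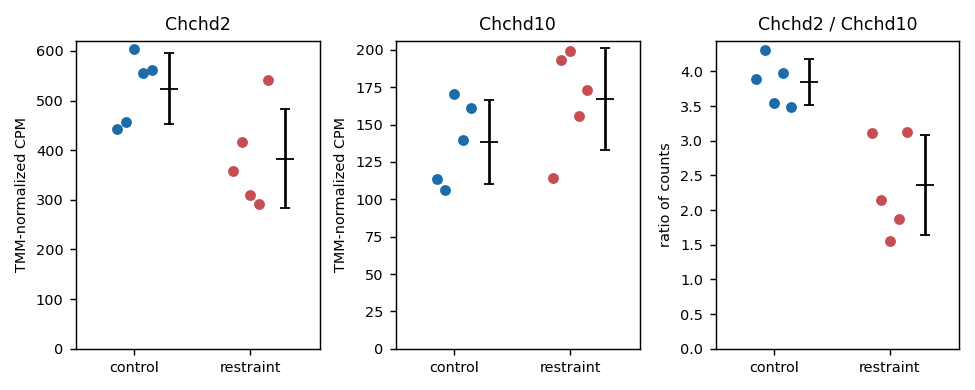
TMM-normalized CPM of Chchd2 and of Chchd10, and the ratio of their counts, in each of 5 control (blue) and 5 restraint (red) libraries. Black marks are the mean and SD of each group, and the ratios of the restraint libraries (1.55 to 3.12) lie below those of the controls (3.49 to 4.30).

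The other pairs overlapped. Apoo against Apool went from a control ratio of 8.88 ± 1.31 to a restraint ratio of 6.94 ± 1.06 (mean and SD of 5 libraries; p = 0.0159 by the exact permutation test, adjusted 0.0536). The exon lengths of Apoo and Apool are 1255 and 3486 bases. Timm17a against Timm17b, the alternative subunits of the channel, had 4.55 ± 0.316 and 3.93 ± 0.403 (exact permutation p = 0.0238, adjusted 0.0536). Grpel1 against Grpel2, its relative outside the member rule, had 2.83 ± 0.249 and 2.28 ± 0.265 (exact permutation p = 0.0238, adjusted 0.0536). Chchd3 against Chchd6 had 0.953 ± 0.120 and 1.13 ± 0.0916 (exact permutation p = 0.0397, adjusted 0.0714), and Tomm40 against Tomm40l 7.90 ± 1.98 and 10.4 ± 1.41 (exact permutation p = 0.0635, adjusted 0.0952). Without control 2 the log2 difference of the last pair was 0.26 instead of 0.43. For Timm8a1 against Timm8b, Pmpca against Pmpcb and Timm10 against Timm10b, the log2 ratios differed by -0.02 ± 0.17, -0.06 ± 0.12 and -0.00 ± 0.10 (SE).

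The lower values were not spread evenly over the restraint libraries. Restraint 4 had 23 of the 42 members below every control and restraint 1 had 17, against 16 in restraint 3, 10 in restraint 5 and 8 in restraint 2. Members above every control numbered 4, 11, 11, 1 and 7 in restraint 1 to 5, so restraint 2 had more above than below. The same shares over all genes tested were not counted. Restraint 4 was the lowest of all 10 libraries for 17 members. The median deviation of the members from the control mean, on the log2 scale, was -0.14, 0.03, -0.13, -0.26 and 0.02 in restraint 1 to 5, and it ran from -0.04 to 0.08 in controls. Restraint 2 and 5 therefore lay inside the control range and the other 3 below it.

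The libraries also differed in how level depended on exon length. The slope of log2 CPM per doubling of length, over 8512 other genes, was 0.07, -0.07, 0.01, 0.10 and -0.05 in restraint 1 to 5, and ran from -0.07 to 0.07 in controls. The 3 restraint libraries with low member levels had the 3 highest slopes of their group. Control 2, with a slope of 0.07, had a member deviation of -0.03, the lowest mean log2 CPM of the members among the controls (5.56), and the lowest level of all 10 libraries for 9 members. Control 5, with a slope of -0.03, had the lowest member deviation of the controls, -0.04, and a mean log2 CPM of 5.57. Many members are short, with a median exon length of 2924.5 bases against 3879 over all genes tested. Among members of up to 1500 bases, 4 of 9 were lower at an unadjusted p under 0.05, beside 23.9% of 598 tested genes of that length with at least 5 CPM in controls. Among members of 1500 to 3000 bases with at least 5 CPM, 2 of 12 were lower, beside 11.5% of 2141 such genes, and among those of 3000 to 5000 bases 1 of 13 was, beside 7.56% of 3255, so these middle classes lay near their background. Among members over 5000 bases, 4 of 7 were lower (Samm50, Timm17a, Chchd4 and Tomm40l), beside 4.89% of 5314 such genes. Tomm40l falls in this class by its full exon length, of which 64.3% is shared with Nr1i3, where reads were not assigned. With each library's length trend removed, 9 members were lower and 3 higher at that level (Immt, Chchd10 and Timm8b), where 6.3% and 6.6% of all genes were; Apoo and Chchd1 were no longer among them, and the median log2 fold change was -0.03. Samm50, Grpel1, Chchd2, Chchd4, Timm13, Tomm7, Tomm22, Tomm40l and Timm17a remained lower.

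**Figure D4:**
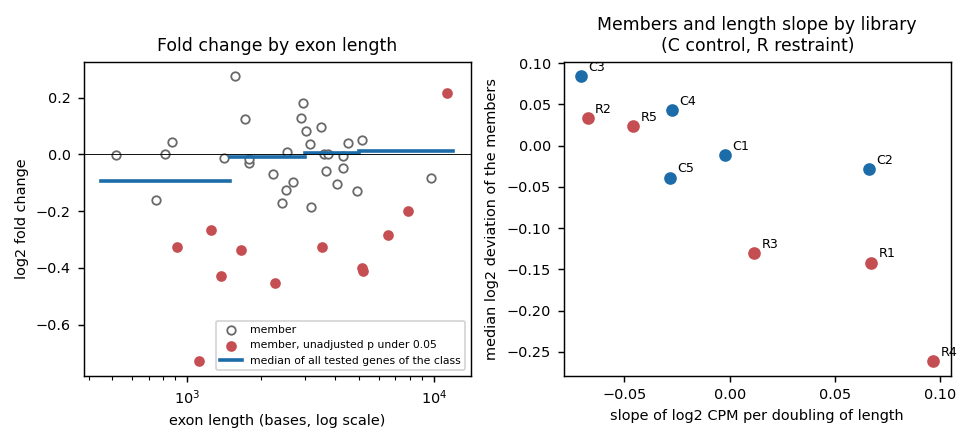
Left, log2 fold change of the 42 members against exon length (log axis), with filled points for an unadjusted p under 0.05 and blue bars for the median of all tested genes with at least 5 CPM in controls in 4 length classes. Right, the median log2 deviation of the members from the control mean against the length slope of each library, where restraint 4 has the highest slope and the lowest member level.

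Marker sums of other cell types are given beside these values. Summed astrocyte markers overlapped between the groups (values above), with 5 of 8 positive and 1 higher at an unadjusted p under 0.05. Oligodendrocyte markers summed to 1574 to 1924 CPM in controls and 1498 to 2091 CPM after restraint, with 4 of 7 positive and 2 higher at that level. Vascular markers summed to 10.1 to 15.99 and 13.5 to 21.95 CPM, with 7 of 7 positive and 3 higher. Microglial markers had 4 of 8 positive and 0 past that level. GABA neuron and glutamate neuron markers had 1 of 3 positive each and 0 past it. Dopamine neuron markers had 9 of 11 positive, 6 of them higher at an unadjusted p under 0.05. Of all genes tested, 5.64% were higher and 6.04% lower at that level. No marker was at 0 in all libraries. Transcripts of the mitochondrial genome summed to 2157 to 2532 CPM in controls and 2112 to 2890 CPM after restraint, so they overlapped. The part of these measures in the member values was not tested.

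Other genes of the import pathway, from a list of 41 that lie outside the member rule, were counted in the same way. Of 40 tested, 29 were negative, with a median of -0.08. At an unadjusted p under 0.05, 5 were lower (12.5%, beside 6.04% of all genes) and 2 higher (5%, beside 5.64%), and 0 passed at an adjusted p under 0.05. Of tested genes with at least 5 CPM in controls, 4.89% to 23.9% were lower at the unadjusted level, by class of exon length. The list holds 11 small proteins with paired cysteines, of the kind the Chchd4 relay handles, grouped after their values were seen. Of these, 10 were negative, with a median of -0.09, where 50.4% of all genes tested were negative. At an unadjusted p under 0.05, 2 were lower (Ndufa8, a complex I subunit, and Coa6, a cytochrome c oxidase factor), or 18.2%, and 0 were higher. In the length class of Ndufa8 and Coa6, up to 1500 bases, 408 of 598 tested genes with at least 5 CPM in controls were negative. Of those 598 genes, 23.9% were lower at that level. Ndufa8 went from 157 ± 19.9 to 119 ± 19.0 CPM (SD, n = 5 each; log2 -0.40 ± 0.11, edgeR adjusted p = 0.166) and Coa6 from 22.9 ± 2.62 to 18.1 ± 3.19 CPM (-0.34 ± 0.12, adjusted p = 0.277). Both are short, and with the length trend removed they were at -0.26 ± 0.07 and -0.17 ± 0.09. Aifm1, which binds Chchd4 and promotes its import, went from 25.5 ± 2.19 to 20.7 ± 2.05 CPM (-0.30 ± 0.10, edgeR adjusted p = 0.216). 2410015M20Rik, the gene of the MICOS subunit MIC13, went from 68.1 ± 5.93 to 51.3 ± 9.60 CPM (-0.41 ± 0.11, edgeR adjusted p = 0.174), and Immp2l, a subunit of an inner membrane peptidase, was at -0.45 ± 0.20. The matrix Hsp70 gene Hspa9, partner of Grpel1, was at 0.12 ± 0.08.

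Promoter sequence was examined after the values of the members were seen. RefSeq windows (GRCm38.p6) of 250 bases before to 50 bases after the start were matched for 37 of 42 members; Chchd2, Chchd7, Timm21, Tomm40l and Tomm7 had none. The letters CCGGAAG, a core of the sites of ETS factors such as GABP, which is known to act at nuclear genes of mitochondria, were searched on both strands. They occurred in 16 of 37 members (43.2%), beside 17.2% of the 12698 tested genes with a window and 9.93% of all 27025 genes with a RefSeq window. Among the members lower at an unadjusted p under 0.05, 2 of the 8 with a window held them, as did Immt, which was higher. The NRF1 palindrome occurred in 0 of the 37 (2.01% of tested genes), and the YY1 letters AAGATGGC in 1, Timm50 (4.49% of tested genes). A match is a description of the letters only. The stretches of 27 bases below, with the searched letters or their reverse complement in capitals, come from the 3 members that were both past an unadjusted p of 0.05 and held the motif, and show it before the start in genes that stood on either side. They lie on the plus strand at chr5:36464971-36464997, chr15:79670814-79670840 and chr6:71831191-71831217, with the motif 204, 44 and 119 bases before the start. In Tomm22 the letters overlap a match on the opposite strand, and Tomm22 and Immt each hold a further match after the start.
Grpel1: acctcctcacCTTCCGGggctcccaga
Tomm22: cggctcgcttCCGGAAGacgctctgtc
Immt: caagcgcgacCCGGAAGgagaacctgc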

How the data were processed

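Ribosome-associated RNA of 5 control and 5 restraint libraries was compared. The deposited table holds whole-number counts per gene, made by the authors with featureCounts 2.0.3 on GENCODE M30 exons, per the file headers, with each mate of a pair counted, no use of strand, and no multi-mapping reads. Reads went through FastQC, Trimmomatic and STAR, per the submitters' processing notes, which name mm10, while M30 is an annotation of GRCm39, so gene coordinates are given in GRCm39. Exon length, the other deposited value, is the table's own. It counts all annotated exon bases of a gene, so it can exceed the length of a transcript. Symbols were matched by identifier for 52073 of 56691 genes. Even numbers made up 76.8 to 79.8% of the counts from 1 to 30 in control libraries and 80.01 to 84.8% in restraint libraries. The groups did not overlap in this share, so it cannot be told apart from restraint, and its part in the results was not tested.

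Genes were filtered with edgeR's filterByExpr (18440 left), normalized by TMM and tested with edgeR 4.0.16 (glmQLFit, glmQLFTest, group only), adjusted by Benjamini-Hochberg over all genes. The median standard error of the members was 0.106. The test was checked on simulated data. Alternatives used DESeq2 1.42.0, limma 3.58.1 (voom, with and without quality weights), other normalizations and filters, robust estimation, a replicate block, a length correction (lowess, span 0.3) and leaving out each library. Of the members, 19 share exon bases with another gene, and 2 have a pseudogene named after them. Ratios used a prior count of 2. Genes given per library are the 2 of smallest p in each role group and both members of the pair Chchd2 and Chchd10. From the wider pathway list, the 5 of smallest p are named. The members and lists were chosen with earlier results of these data known, and Chchd10 per library, Hspa9, the motifs and their stretches were chosen after values were seen. A planned search for cysteine patterns in proteins was not run because protein sequences were not used here.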

Additional observations from a re-analysis of the deposited data

Results flagged for a closer look

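Of 102 groups of 5 libraries checked (42 members and 9 ratios, in each condition), 6 held a library that lay far from the others by Dixon's criterion, and chance flags about 1 in 20 groups. In controls, control 2 held the highest Gfer level, 27.9 CPM against 23.6 to 24.7 CPM, and the highest Tomm40l level, 22.4 CPM against 14.2 to 15.5 CPM. Control 3 held the highest Apoo level, 58.8 CPM against 43.8 to 47.6 CPM. After restraint, library 2 held the highest Timm29 level, 122.8 CPM against 109 to 111 CPM, and library 5 the highest Tomm20 level, 494 CPM against 424 to 443 CPM. Library 3 held the highest Tomm6os level, 1.36 CPM against 0.534 to 0.770 CPM, a gene with few counts.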

How the results depend on the processing

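Over 21 alternatives the count of members lower at an unadjusted p under 0.05 stayed between 9 and 13, with 9 or more of the same 11 genes each time, and the median log2 fold change between -0.09 and -0.03. The count of higher members, 1, became 2 with a filter of at least 1 count, with voom quality weights and with the replicate block, 3 with the length trend removed, and 1 to 2 when 1 library was left out. The count past an adjusted p of 0.05, 0, became 4 with a filter of at least 1 count, 4 with DESeq2 and 0 to 2 when 1 library was left out (Tomm7 without control 5, Chchd2 and Chchd4 without restraint 5); the cause was not tested. Timm17a was above an unadjusted p of 0.05 without control 1, 2 or 3 or restraint 1 or 4. Timmdc1 changed sign with the length trend removed (0.026) and ran from -0.088 to 0.034 when 1 library was left out. The log2 ratios of Timm8a1 to Timm8b (-0.10 to 0.10), Pmpca to Pmpcb (-0.11 to 0.031) and Timm10 to Timm10b (-0.088 to 0.051) also changed sign when 1 library was left out, and the other 6 did not. With the replicate block, 10 members were lower and Tomm7 stood at -0.71 (edgeR adjusted p = 0.325). Libraries of the same number did not deviate together (correlation across genes of 0.0270, -0.164, -0.0252, -0.0724 and -0.0145 for numbers 1 to 5), and control 2 correlated best with restraint 4 (0.222), so the numbers are not taken to pair libraries. Over all genes, 3 lower and 1 higher past an adjusted p of 0.05 became 185 and 117 with DESeq2, 199 and 103 with the filter of at least 1 count, 66 and 21 with voom quality weights, 48 and 20 with the length trend removed, 12 and 5 with library size only, 0 with the replicate block and with robust estimation, and 83 and 9 at most when 1 library was left out (restraint 5). The spread between libraries, a median standard error of 0.106 on the log2 scale for the members, limits which differences could be detected.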
